A study of Mus musculus with 38 samples.

Results

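Livers in which Myc and YAP were switched on together for 2 days were compared with control livers. The comparison set 3 libraries of R26 tet-Myc/YAP mice against 4 libraries of R26 WT mice, 7 of the 38 libraries of the series, chosen by the column names of one table of RPKM values (read counts scaled by gene length and library depth). Both groups carried R26-rtTA, a tetracycline-dependent activator placed at the Rosa26 locus, which is active in most cell types, so the driver did not restrict the transgenes to hepatocytes. The tet-Myc/YAP mice also carried tet-Myc and tet-YAP, the latter encoding an activated YAP mutant that escapes inhibitory phosphorylation, and were fed doxycycline. The R26 WT mice carried neither transgene, and their labels give no time. The R26 tet-Myc (n = 4) and R26 tet-YAP (n = 6) livers, each with 1 of the transgenes and the same 2 days of induction, entered the same fit and are used below only where a difference from a single transgene was tested. The labels give neither age nor sex and do not tie the libraries to separate animals. The p-values therefore measure how far these libraries scatter, and that scatter may be technical only.

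Myc is a transcription factor that pairs with Max, binds E-box sequences and drives cell growth and entry into the cell cycle. YAP is a co-activator that the Hippo kinases keep out of the nucleus; when active it works mainly through the TEAD DNA-binding proteins. Hepatocytes of the adult liver are mostly quiescent. A cell that leaves quiescence first makes the proteins that license and copy DNA, and later the cyclins, kinesins and kinetochore proteins that carry out mitosis.

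The RPKM values of each library rested on 26994618 to 29904964 reads in R26 WT and on 45374852, 45384018 and 25986743 reads in tet-Myc/YAP libraries 1, 2 and 3, numbered by column. Of these reads, 7408444 to 7981319 fell in genes in R26 WT, against 9293332, 8784240 and 5730939. The sixth-highest gene stood at 1447 to 1721 reads per kilobase in the libraries of both groups whatever their depth, which is 52.9 to 62.3 RPKM in R26 WT but 34.3, 33.8 and 55.7 RPKM in tet-Myc/YAP libraries 1, 2 and 3. No source used here says how such an upper limit arose. The libraries were liver by their markers, with all 59 genes found of a list of secreted hepatocyte proteins above the filter on low values (at least 1 RPKM in at least 3 of the 17 R26 libraries). Some libraries of a group were much closer than others: tet-Myc/YAP libraries 1 and 2 differed by 1.94 times the variance expected from counting alone, against 10.3 and 9.78 times for the pairs with library 3, and R26 WT libraries formed the close pairs 1 and 4 (1.59 times) and 2 and 3 (1.14 times), against 3.27 to 3.81 times for the other pairs. Library 3 of tet-Myc/YAP also had a female pattern, with Xist at 21.5 RPKM and Y-linked genes summing to 0.338 RPKM, whereas the other 6 libraries had a male pattern. Sex, close pairs and depth in the tet-Myc/YAP group cannot be told apart from one another.

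The median log2 difference of all 11263 genes tested was −0.39 as deposited and −0.01 after the libraries were rescaled by median ratios. As deposited, 519 genes were called higher in tet-Myc/YAP and 4232 lower (4.61% and 37.6% of the genes tested, at an adjusted p under 0.05 and a log2 difference of at least 0.5). After rescaling, 1363 were called higher and 967 lower (12.1% and 8.59%). Quantile normalization gave 1104 and 1140 (9.8% and 10.1%). Of the genes called higher as deposited, 518 were called higher under all 3 scalings (4.6% of the genes tested), whereas of those called lower only 828 were (7.35%). Without tet-Myc/YAP library 3 the shares called higher and lower as deposited were 5.7% and 40.6%, with close pairs averaged 2.89% and 31.4%, and with limma voom on reads recovered from the values, chosen after seeing the data, 14.9% and 10.4%. The shift of the group also grew with the level of a gene up to 32 RPKM. Genes at 1 to 2 RPKM in R26 WT had a median difference of −0.15 as deposited, genes at 4 to 8 RPKM −0.40, and genes at 16 to 32 RPKM −0.64. The libraries differed here. In the genes at 32 to 80 RPKM the median stood at −0.78 and −0.82 in tet-Myc/YAP libraries 1 and 2 but at −0.25 in library 3, which had stood at −0.45 and −0.42 in the 8 to 16 and 16 to 32 RPKM genes. Log2 differences below are on the log2(RPKM + 0.5) scale, as deposited unless called rescaled, and should be read against these medians.

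**Figure D1:**
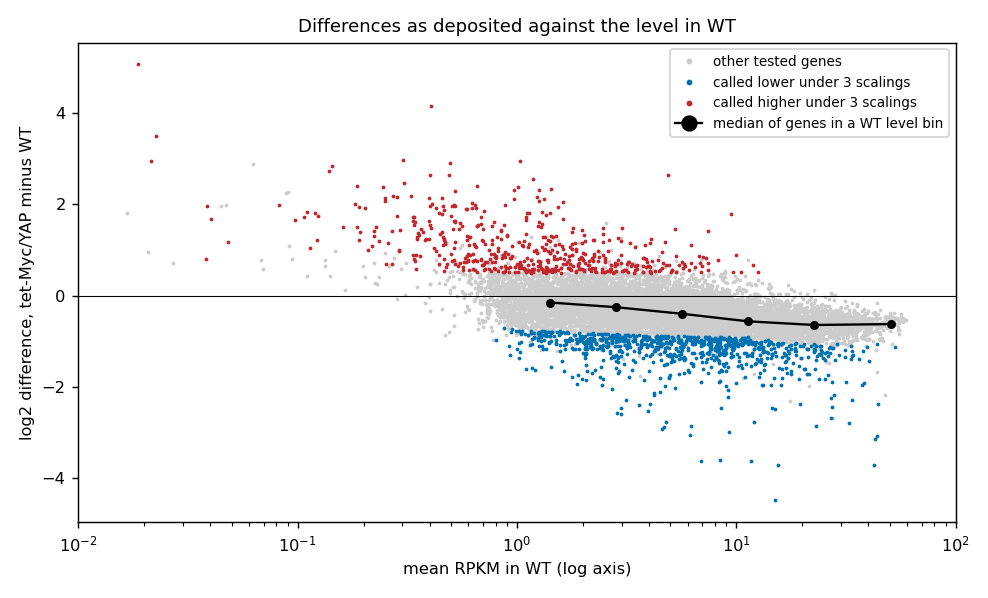
Log2 difference between tet-Myc/YAP and R26 WT as deposited (vertical axis) against the mean RPKM in R26 WT (horizontal log axis), 1 point for each tested gene with reads in R26 WT. Red and blue points are the 518 genes called higher and the 828 called lower under all 3 scalings, and the black line, the median of all genes in each level bin, drops from −0.15 at 1 to 2 RPKM to −0.63 at 32 to 80 RPKM.

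Myc, the induced gene, stood at 0.767, 0.753, 0.522 and 0.612 RPKM in the 4 R26 WT libraries and at 3.12, 2.93 and 2.70 RPKM in the 3 tet-Myc/YAP libraries. The groups did not overlap, and Myc was higher by 1.56 ± 0.29 (SE) on the log2 scale (adjusted p = 0.000209, rescaled 1.90). In the 4 tet-Myc libraries it stood at 1.98, 2.68, 3.50 and 0.609 RPKM, and in the 6 tet-YAP libraries at 1.42 to 2.27 RPKM. The library labelled tet-Myc 4 was thus within the R26 WT range for Myc, while all tet-YAP libraries were above it. Other genes of that library were outside the R26 WT range or within it. Cyp2c39 stood at 11.7 RPKM (0.261 to 0.540 RPKM in R26 WT) and Elovl3 at 14.3 RPKM (38.8 to 45.3 RPKM). Cml5, at 13.6 RPKM, was within the range (9.59 to 13.9 RPKM). Whether the library carries the right label was not tested. Without that library 501 genes were called higher than tet-Myc and 3913 lower, against 536 and 4094 with it, and comparisons with tet-Myc below were also made without it, an alternative chosen after seeing the data. The endogenous gene and the transgene could not be told apart in these values. Yap1 stood at 4.79 to 5.20 RPKM in R26 WT and 4.79 to 5.03 RPKM in tet-Myc/YAP, a log2 difference of −0.04 (adjusted p = 0.744) that became 0.37 after rescaling (adjusted p = 0.00315), under the size required for a call. Whether reads of the transgenic YAP align to the mouse gene was not tested, so Yap1 is no check of the labels. Of the 13 genes found of the Myc network, which share or compete for dimer partners, 11 were tested. Apart from Myc itself, 3 of them (Mxd4, Mlx and Mlxipl) were called lower as deposited and none after rescaling, when 3 genes of the list were called higher, among them Myc and its partner Max (rescaled 0.72).

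Replication genes were among the clearest gains. The MCM helicase, which unwinds DNA at origins, was represented by Mcm5 at 1.56, 0.991, 0.932 and 1.04 RPKM in R26 WT and 5.38, 4.48 and 5.75 RPKM in tet-Myc/YAP. The difference was 1.82 ± 0.17 (adjusted p = 5.17e-07, rescaled 2.19). Mcm6 rose from 0.755 to 1.28 RPKM to 4.23 to 5.83 RPKM (1.81 ± 0.19, adjusted p = 1.54e-06). Here library 3 of tet-Myc/YAP was as high as the other 2. Cdc45, a partner of the helicase, and Cdt1, which loads it, rose by 1.23 and 1.31. Of the 25 licensing and firing genes found, 17 had all 3 tet-Myc/YAP libraries above all 4 R26 WT libraries, against 7.93% of the 18146 genes with a read in these libraries. After rescaling 20 did, against 20.4%. Of the 19 tested, 12 were called higher and 1 lower, and 13 and 1 after rescaling. The exception was Mcm10, a replication initiation factor, which fell from 6.21 to 7.24 RPKM to 2.01 to 2.73 RPKM (−1.34 ± 0.31, adjusted p = 0.00135, rescaled −0.96). That call was lost with close pairs averaged. In tet-Myc, Mcm10 stood at 2.44 and 2.89 RPKM in the libraries of female pattern and at 9.01 and 7.84 RPKM in those of male pattern. The male-pattern tet-Myc/YAP libraries 1 and 2 were low as well, at 2.55 and 2.01 RPKM. The part of the sex pattern in this difference was not tested.

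At the replication fork the largest step was that of Pole, which encodes the polymerase of the leading strand. It stood at 0.327 to 0.477 RPKM in R26 WT and at 3.82, 3.31 and 3.14 RPKM in tet-Myc/YAP (2.13 ± 0.13, adjusted p = 7.29e-08). Lig1, which joins Okazaki fragments, rose by 1.74, Prim1, a primase subunit, by 1.51, and Chaf1a, which deposits histones on new DNA, by 1.29. Of the 34 fork genes found, 20 had non-overlapping higher libraries, and of the 30 tested 16 were called higher and 1 lower (21 and 0 after rescaling). The gene lower only as deposited was Pold4, at 9.58 to 10.2 RPKM in R26 WT and 5.85 to 7.06 RPKM in tet-Myc/YAP (rescaled −0.20).

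Among genes that make the precursors of DNA, Rrm2 and Rrm1, the subunits of ribonucleotide reductase, rose by 1.94 ± 0.15 (adjusted p = 1.8e-07) and 1.20 ± 0.14 (adjusted p = 4.06e-06). Rrm2 stood at 1.38 to 1.73 RPKM in R26 WT and 8.83, 7.37 and 5.97 RPKM in tet-Myc/YAP. Tyms, which makes thymidylate, rose by 0.57. Paics and Nme1, purine and nucleotide enzymes at 23.1 to 28.8 and 12.3 to 15.7 RPKM in R26 WT, were lower as deposited only (rescaled −0.15 and −0.24). All 26 nucleotide synthesis genes found were tested. Of these, 4 were called higher and 2 lower, and 13 and 0 after rescaling.

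Genes of homologous recombination and the Fanconi pathway, which repair broken or stalled forks, were higher in many members. Brca2 rose from 0.690 to 0.875 RPKM to 3.61, 2.83 and 3.06 RPKM (1.53 ± 0.10, adjusted p = 1.34e-07). Fancb rose by 1.64, Rad54b by 1.38 and Topbp1, which activates the ATR checkpoint kinase, by 0.89. Of the 39 found, 30 had non-overlapping higher libraries. Of the 27 tested, 14 were called higher and 1, the nuclease gene Mus81, lower (19 and 0 after rescaling). Among the regulators, E2f1, which activates replication genes, rose from 0.571 to 0.814 RPKM to 2.17, 2.29 and 2.30 RPKM (1.20 ± 0.14, adjusted p = 2.94e-06), and Rbl1 (p107), a pocket protein that represses E2F targets, rose by 1.10. As many of these genes are low in quiescent liver, some members passed the filter only with the tet-Myc/YAP libraries counted, namely 3 of the 19 licensing genes tested, 7 of the 30 fork genes and 9 of the 27 recombination genes, so the counts over tested members describe those that passed. E2f1 and Rbl1 were of this kind too, as no R26 library outside tet-Myc/YAP reached 1 RPKM for either. The group in which they were high brought them into the test.

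Chromatin genes that accompany replication were called in both directions. Uhrf1 and Hells, which maintain DNA methylation on new strands, rose by 1.96 ± 0.22 and 1.64 ± 0.17 (adjusted p = 2.64e-06 and 1.47e-06). Ezh2, the Polycomb methyltransferase, rose by 0.98 and Suv39h1, a heterochromatin methyltransferase, by 0.86, whereas the Polycomb gene Cbx8 fell by 0.90. Of the 22 tested genes of this group, 5 were called higher and 5 lower (7 and 1 after rescaling). Of the 22, 2 passed the filter only with the tet-Myc/YAP libraries counted, as did 3 of the 50 replication-dependent histone genes below. Of all genes tested, 4.61% were called higher and 37.6% lower (12.1% and 8.59% after rescaling). Replication-dependent histone genes split by library. After rescaling their median stood 1.16 and 1.19 above R26 WT in tet-Myc/YAP libraries 1 and 2 but −0.04 in library 3. Of the 50 tested, 15 were called higher and 8 lower; without library 3 the numbers were 28 and 7, and with close pairs averaged 5 and 6. Hist1h4a rose in all 3 libraries (10.2, 8.19 and 10.2 RPKM, against 3.44 to 4.99 RPKM in R26 WT), while Hist1h1c, a linker histone that is also made outside S phase, fell from 22.8 to 30.8 RPKM to 11.5 to 12.4 RPKM. Transcripts of histone genes are near-identical copies, and reads that fit several of them may have been split between them or dropped.

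Mitotic genes were higher too, with steps that were uneven across libraries. Cdc20, which activates the anaphase promoting complex, stood at 0.806, 0.391, 0.447 and 0.338 RPKM in R26 WT and at 11.1, 9.14 and 3.04 RPKM in tet-Myc/YAP (2.90 ± 0.37, adjusted p = 6.61e-06, rescaled 3.26). Ccnb1, cyclin B1, stood at 0.352 to 0.563 RPKM and at 10.1, 8.23 and 2.03 RPKM (2.64 ± 0.38, adjusted p = 2.51e-05). Ect2, which places the cleavage furrow, stood at 0.271 to 0.485 RPKM and at 7.68, 6.34 and 2.67 RPKM (2.65 ± 0.25, adjusted p = 6.76e-07). In each of the 3, library 3 was the lowest of the tet-Myc/YAP libraries and still above every R26 WT library. Ckap2, a spindle protein, rose by 2.97, Pbk, a mitotic kinase, by 2.39, Ccna2, cyclin A2, by 2.39 and Mki67, the gene of the Ki67 proliferation antigen, by 2.34 (1.12 to 1.76 RPKM in R26 WT, 15.2, 13.4 and 3.75 RPKM in tet-Myc/YAP). Cdk1, the mitotic kinase, rose by 1.96, Ccnb2 by 1.91, and the ubiquitin enzyme gene Ube2c by 1.81. Of the 17 cyclin and CDK genes tested, 5 passed the filter only with the tet-Myc/YAP libraries counted, among them Ccna2, Ccnb1, Ccnb2 and Cdk1. Cdc20, Ect2, Ckap2 and Pbk passed in the same way.

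**Figure D2:**
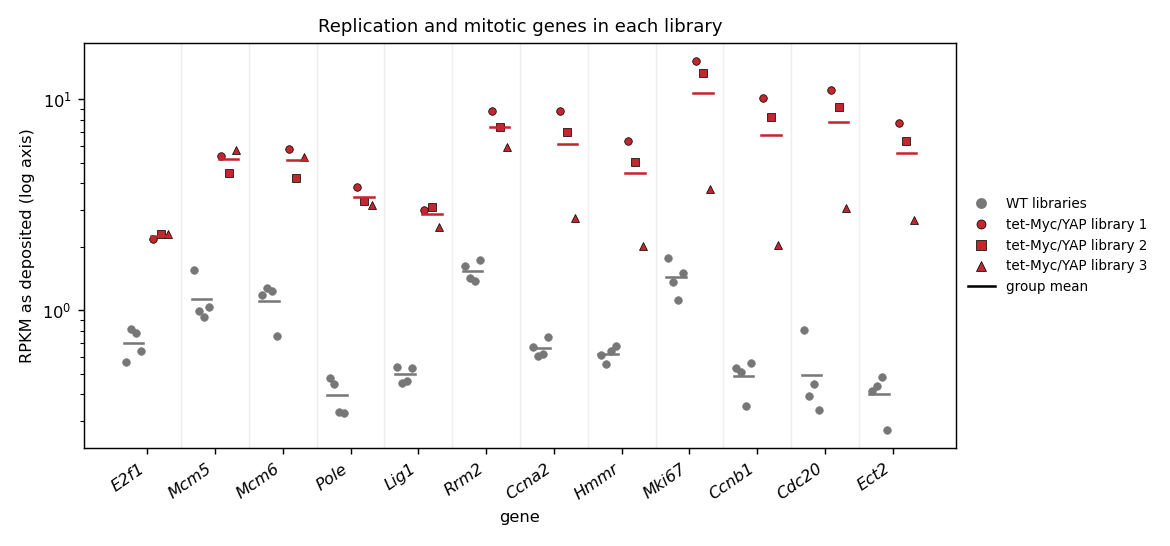
RPKM as deposited (log axis) of 12 replication and mitotic genes in each library of R26 WT (grey) and tet-Myc/YAP (red, marker shape gives the library), with bars at group means. The 3 tet-Myc/YAP libraries lie close together for the replication genes on the left, such as Mcm5 (4.48 to 5.75 RPKM), and library 3 lies below the other 2 for the mitotic genes on the right, such as Ccnb1 (2.03 against 8.23 and 10.1 RPKM).

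By list, 31 of the 32 spindle, mitotic kinase and kinesin genes found had all 3 tet-Myc/YAP libraries above all R26 WT libraries, as had 33 of 41 kinetochore and spindle checkpoint genes and 9 of 12 cytokinesis genes. Many of these genes were under the filter in the other groups. Only 18 spindle genes passed the filter, 13 of them through the tet-Myc/YAP libraries alone, and 16 of the 18 were called higher and 0 lower (18 and 0 after rescaling, 14 and 0 with close pairs averaged). Kinetochore genes were called higher in 16 and lower in 2 of 25 tested (19 and 0 after rescaling), led by Zwilch (2.07), Mad2l1 (1.82), Cenph (1.81) and Dsn1 (1.72), which link chromosomes to the spindle or monitor that link. The 2 lower only as deposited were Zwint and Mis12. Cytokinesis genes were called higher in 5 of 6 tested, with Racgap1 at 1.96 and Arhgap11a at 1.87, and condensin and cohesin genes in 7 of 16, with Ncapg2 at 1.92, Smc2 at 1.72, Ncapd2 at 1.66 and Smc4 at 1.15. Of the tested members, 9 of the 25 kinetochore genes, 4 of the 6 cytokinesis genes and 3 of the 16 condensin and cohesin genes passed the filter only with the tet-Myc/YAP libraries counted. The anaphase promoting complex and separase list held calls in both directions. Of its 18 genes found, 4 had non-overlapping higher libraries and 7 non-overlapping lower ones (7.93% and 38.8% of all genes with a read had). Of the 16 tested, 2 (Cdc20 and Ube2c) were called higher and 2 lower, where 4.61% and 37.6% of all genes tested were. Its median was −0.18, and after rescaling 4 were called higher and 0 lower. The lower ones were Pttg1, securin, at 4.19 to 4.92 RPKM in R26 WT and 2.69, 2.54 and 2.13 RPKM in tet-Myc/YAP (rescaled −0.37), and Anapc11, a catalytic subunit (rescaled −0.19). After rescaling, the median of the spindle list stood 2.55, 2.41 and 0.93 above R26 WT in libraries 1, 2 and 3, and that of the licensing list 1.29, 1.06 and 1.12.

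The promoters of these genes are shown because short elements in them are known to time replication and mitotic transcription. In lower case are the 250 bases before the start of each gene, from RefSeq (GRCm38.p6, a later build than the mm9 of the values), read 5′ to 3′ on the strand of the gene; capitals mark CCAAT, the box bound by NF-Y, TTTGAA, the core of the cell cycle homology region bound by the DREAM and MuvB complexes, and TTTCGCG or TTTGGCG, forms of the E2F site, each on either strand.
Cdc20, chr4:118437344-118437593 minus strand: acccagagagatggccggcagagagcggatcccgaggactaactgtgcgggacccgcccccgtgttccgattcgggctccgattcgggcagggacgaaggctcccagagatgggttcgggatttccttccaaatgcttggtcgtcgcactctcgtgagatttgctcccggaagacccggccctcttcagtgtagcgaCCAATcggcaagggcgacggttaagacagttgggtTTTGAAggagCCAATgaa
Ect2, chr3:27153879-27154128 minus strand: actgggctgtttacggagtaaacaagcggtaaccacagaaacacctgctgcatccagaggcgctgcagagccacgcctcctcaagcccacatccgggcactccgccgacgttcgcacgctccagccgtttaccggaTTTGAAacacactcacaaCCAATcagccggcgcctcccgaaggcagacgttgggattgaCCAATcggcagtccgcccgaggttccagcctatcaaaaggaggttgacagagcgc
Mki67, chr7:135716380-135716629 minus strand: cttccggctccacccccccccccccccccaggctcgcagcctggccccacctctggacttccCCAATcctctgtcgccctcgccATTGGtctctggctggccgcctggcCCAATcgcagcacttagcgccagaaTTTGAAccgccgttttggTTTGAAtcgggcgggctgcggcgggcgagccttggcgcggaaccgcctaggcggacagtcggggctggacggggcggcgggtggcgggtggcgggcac
Ccnb1, chr13:100786487-100786736 minus strand: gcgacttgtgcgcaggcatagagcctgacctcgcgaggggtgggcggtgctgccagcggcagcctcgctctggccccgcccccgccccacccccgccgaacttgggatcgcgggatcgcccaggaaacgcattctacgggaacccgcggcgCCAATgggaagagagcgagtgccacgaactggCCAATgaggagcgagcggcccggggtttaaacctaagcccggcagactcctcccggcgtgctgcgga
Mcm6, chr1:128359706-128359955 minus strand: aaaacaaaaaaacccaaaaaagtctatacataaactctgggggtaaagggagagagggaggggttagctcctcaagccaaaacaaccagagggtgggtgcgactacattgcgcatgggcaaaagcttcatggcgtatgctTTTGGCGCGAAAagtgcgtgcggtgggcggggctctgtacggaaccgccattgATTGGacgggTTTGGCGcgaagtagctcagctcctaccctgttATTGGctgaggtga
Cdc20, Ect2 and Mki67 hold both CCAAT and TTTGAA, Ccnb1 holds CCAAT at 2 positions and no TTTGAA, and Mcm6, the replication gene, holds E2F forms that overlap each other, and CCAAT, in this window.

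Of the 45 genes of the kinetochore, spindle, cytokinesis, condensin and cohesin, and anaphase promoting complex lists that were called higher under all 3 scalings, 39 matched a promoter. CCAAT was found on either strand in 26 of them (66.7%), against 34.5% of all 27025 promoters of the same length, and TTTGAA in 14 (35.9% against 16.3%). GGAATG, a TEAD site, was found in 4 (10.3% against 12.6%), and the E-box CACGTG in 0 (against 6.05%). The genes were chosen by these libraries, so the shares describe them and no test was made. Of the genes tested only 78.9% matched a promoter, so no share over tested genes is set beside these, and the share of all promoters includes genes that were not tested. For the replication genes only 21 of 28 had a promoter, too few for the same description.

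**Figure D3:**
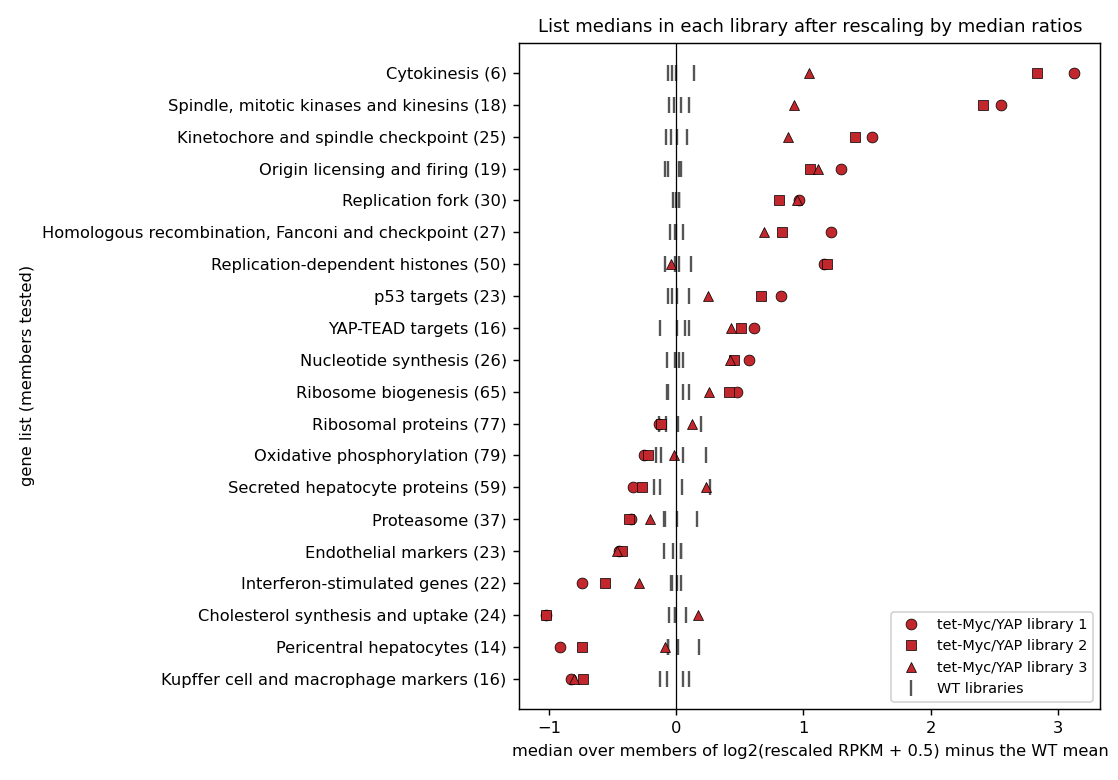
Median over the tested members of each gene list of log2(rescaled RPKM + 0.5) minus the R26 WT mean (horizontal axis), for each tet-Myc/YAP library (red, shape gives the library) and each R26 WT library (grey ticks), with the number of members tested in brackets. The cytokinesis, spindle and kinetochore lists stand between 0.88 and 3.13, with library 3 lowest, and the macrophage list stands between −0.83 and −0.73 in all 3 libraries.

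Some genes with roles in the p53 response rose alongside. Phlda3, which restrains Akt, stood at 0.429 to 0.866 RPKM in R26 WT and at 6.47, 5.02 and 1.44 RPKM in tet-Myc/YAP (1.93 ± 0.32, adjusted p = 7.95e-05). Eda2r, a death-domain receptor, rose by 1.74 (a call lost with close pairs averaged), Zmat3, an RNA-binding protein, by 1.43, and Tnfrsf10b, the TRAIL receptor, by 0.77. Of the 23 p53 targets tested, 4 were called higher and 4 lower (9 and 0 after rescaling, background 12.1% and 8.59%). Of the 23, 3 passed the filter only with the tet-Myc/YAP libraries counted. Sesn1, Perp and Trp53inp1, also on this list, were lower as deposited only. Among cell cycle inhibitors, Cdkn2c (p18) rose from 1.72 to 2.17 RPKM to 5.23, 4.83 and 2.79 RPKM (0.98 ± 0.21, adjusted p = 0.000659). In the Bcl2 family the death-promoting gene Bcl2l11 (Bim) rose by 0.65, while Bad and Bok fell by 1.09 and 1.45. Of the 14 genes of this family tested, 1 was called higher and 6 lower (2 and 2 after rescaling). Of all genes tested, 4.61% were called higher and 37.6% lower as deposited.

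Genes of the Hippo pathway and its outputs were higher in part. Tead1, a DNA-binding partner of YAP, stood at 0.406, 0.751, 0.915 and 0.487 RPKM in R26 WT and at 4.84, 4.59 and 2.71 RPKM in tet-Myc/YAP (1.98 ± 0.19, adjusted p = 8.69e-07, rescaled 2.34). It was also higher than in tet-Myc (mean 0.611 RPKM) and in tet-YAP (mean 1.5 RPKM), by 2.35 and 1.45 rescaled (adjusted p = 4.55e-07 and 2.41e-05), and by 2.23 than in tet-Myc without the library labelled tet-Myc 4. Wwc1 (Kibra), an upstream activator of the Hippo kinases, rose by 0.71 and the YAP-binding angiomotins Amotl2 and Amot by 0.86 and 0.92 (the latter call was lost with close pairs averaged), whereas Amotl1 was lower as deposited only. Of the 22 Hippo genes tested, 4 were called higher and 1 lower (8 and 0 after rescaling). The direct targets were uneven. Ajuba rose in all libraries (9.35, 9.38 and 4.97 RPKM, against 2.52 to 3.70 RPKM), and Cyr61, a matricellular protein, was highest in library 3 (7.47, 7.40 and 15.8 RPKM, against 4.47 to 6.41 RPKM). Ctgf showed the opposite order, at 12.7, 9.48 and 1.11 RPKM, with library 3 below every R26 WT library (1.60 to 1.93 RPKM). Its difference of 1.39 ± 0.53 (adjusted p = 0.0313) was lost with close pairs averaged. Cyr61 lost its call without library 3. Axl, a receptor kinase on this list, fell by 0.94, and of 16 targets tested 4 were called higher and 3 lower (7 and 1 after rescaling). Beside this count and that of the Hippo genes, 4.61% of all genes tested were called higher and 37.6% lower (12.1% and 8.59% after rescaling). The median difference of the 16 targets was 0.13, beside −0.25 for all genes of their level bins.

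The genes of fatty acid oxidation driven by the nuclear receptor PPAR-alpha contained some of the largest steps of the comparison. Cyp4a14, a fatty acid hydroxylase, stood at 2.47, 6.96, 7.81 and 2.32 RPKM in R26 WT, split along the close pairs, and at 29.1, 30.2 and 29.0 RPKM in tet-Myc/YAP (2.65 ± 0.47, adjusted p = 0.00016). Acot2, a mitochondrial thioesterase, stood at 1.04 to 1.29 RPKM and at 11.7, 11.8 and 5.86 RPKM (2.56 ± 0.34, adjusted p = 9.82e-06). Vnn1, a pantetheinase, rose by 1.46. Of the 27 genes tested, 9 were called higher and 3 lower (10 and 0 after rescaling, 4 and 3 with close pairs averaged). Ppargc1a, a co-activator of mitochondrial and gluconeogenic genes, rose from 0.586 to 0.971 RPKM to 3.96, 3.91 and 2.47 RPKM (1.60 ± 0.20, adjusted p = 6.24e-06).

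None of the 4 genes just named was called different from tet-YAP. Against tet-YAP the rescaled differences were −0.02 for Cyp4a14 (adjusted p = 0.981), 0.45 for Acot2 (0.294), 0.43 for Vnn1 (0.158) and 0.49 for Ppargc1a (0.0567), while against tet-Myc all 4 were higher, by 1.53, 1.90, 2.43 and 1.62 (adjusted p = 0.0176 at most). Without the library labelled tet-Myc 4 these were 1.42, 1.90, 2.25 and 1.58 (adjusted p = 0.044 at most). As deposited, Cyp4a14 stood at 21.7 and 29.4 RPKM in the female-pattern tet-Myc libraries and at 4.40 and 10.9 RPKM in the male-pattern ones. The highest of these values was within the tet-Myc/YAP range of 29.0 to 30.2 RPKM. The part of the sex pattern in the Cyp4a14 difference was not tested. Ly6d, a small surface protein of epithelia, was likewise not called against tet-YAP, at 0.552 to 1.47 RPKM in R26 WT, 12.1, 11 and 9.63 RPKM in tet-Myc/YAP and a mean of 11.1 RPKM in tet-YAP (rescaled 0.29, adjusted p = 0.296). Ajuba was lower than in tet-YAP, by −0.61 rescaled (adjusted p = 0.026). Of all genes tested, 6.76% were called lower than tet-YAP and 6.66% lower than tet-Myc after rescaling, and 23.2% and 36.3% as deposited. A p-value above the threshold does not show equal levels.

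**Figure D4:**
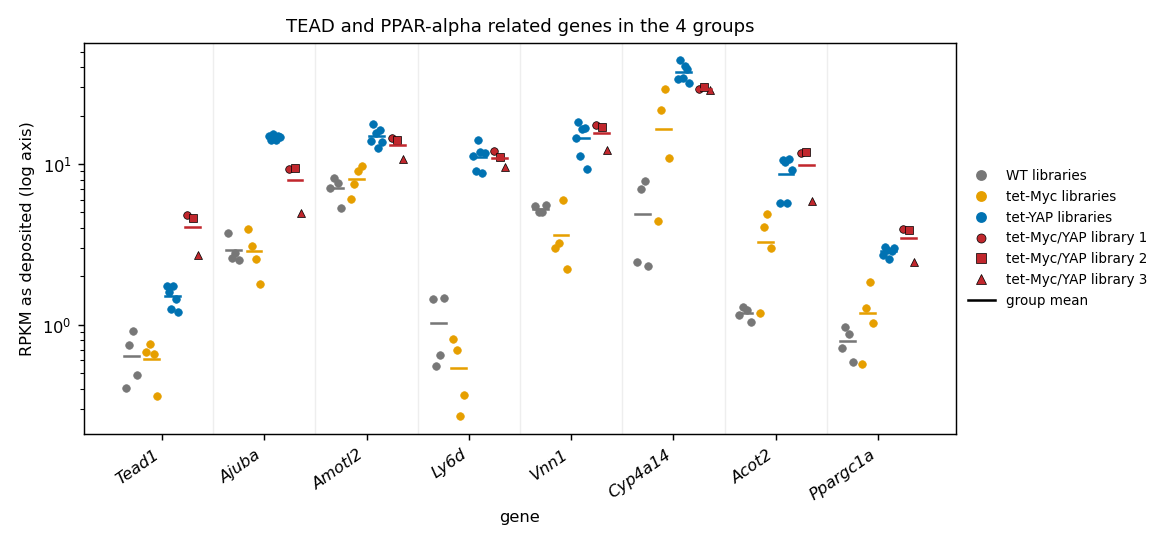
RPKM as deposited (log axis) of 8 genes in each library of R26 WT (grey), tet-Myc (orange), tet-YAP (blue) and tet-Myc/YAP (red, shape gives the library), with bars at group means. For Ly6d and Vnn1 the tet-YAP and tet-Myc/YAP libraries overlap, whereas Tead1 is highest in tet-Myc/YAP (2.71 to 4.84 RPKM, against a mean of 1.5 RPKM in tet-YAP).

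Single cell cycle genes were also compared with the single transgenes, after rescaling. Ccnb1, at a mean of 0.148 RPKM in tet-Myc and 0.417 RPKM in tet-YAP, was higher by 3.57 and 3.12, and by 3.50 than in tet-Myc without the library labelled tet-Myc 4. Mcm5, at means of 0.893 and 0.706 RPKM, was higher by 2.42 and 2.53 (2.36 without that library), and Pole, at 0.407 and 0.299 RPKM, by 2.45 and 2.58 (2.47). All these differences were called, with adjusted p = 3.61e-05 at most. Pole and Ccnb1, however, passed the filter only with the tet-Myc/YAP libraries counted, so the group in which they were high brought them into the test. Outside that group Pole stood at 0.512 RPKM at most, and Ccnb1 reached 1 RPKM only in tet-YAP library 3 (1.04 RPKM). Of all genes tested, 12.4% were called higher than tet-Myc and 9.14% higher than tet-YAP, and 4.76% and 4.22% as deposited. Many members of the cell cycle lists passed the filter through the tet-Myc/YAP libraries alone, so no count over the lists is given, and both comparisons share the tet-Myc/YAP libraries with that against R26 WT.

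Genes of growth and protein synthesis showed smaller steps. Ncl (nucleolin), which acts in ribosomal RNA processing, stood at 4.86, 5.33, 6.68 and 5.82 RPKM in R26 WT and 10.1, 9.61 and 9.31 RPKM in tet-Myc/YAP (0.73 ± 0.20, adjusted p = 0.0038). Gar1, Dkc1 and Nop58, core proteins of small nucleolar ribonucleoproteins, rose by 0.81, 0.65 and 0.64. Of the 65 ribosome biogenesis genes tested, 5 were called higher and 7 lower, and 20 and 0 after rescaling, but 0 and 8 with close pairs averaged. The genes lower as deposited, such as Nop10, Rcl1, Imp3 and Emg1, stood at 15.7 to 22.1 RPKM in R26 WT, where the median of all genes was also lower. Other parts of the growth machinery were compared with genes of like level. Of 77 ribosomal protein genes tested 31 were called lower as deposited but 1, Rps4l, after rescaling; of 76 mitochondrial ribosomal protein genes 51 and 6; of 79 genes of oxidative phosphorylation 61 and 2; and of 37 proteasome genes 35 and 4. Their median differences were −0.47, −0.58, −0.58 and −0.77, beside medians of −0.64, −0.56, −0.64 and −0.56 for all genes of the level bins their members fall in.

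Macrophage and endothelial transcripts were lower in every tet-Myc/YAP library. C1qa, a complement subunit made by Kupffer cells, the macrophages of the liver, stood at 26, 22.9, 23.1 and 25.7 RPKM in R26 WT and at 9.92, 9.63 and 11.7 RPKM in tet-Myc/YAP (−1.19 ± 0.09, adjusted p = 1.76e-07, rescaled −0.77). Fcna, C1qc and Cd5l, also Kupffer cell genes, were lower by −1.33, −1.32 and −1.09 (rescaled −0.91, −0.90 and −0.66). In none of these 4 genes did the groups overlap. Of the 20 macrophage markers found, 16 had non-overlapping lower libraries, also after rescaling (38.8% and 15.5% of all genes with a read had). Of the 16 tested, 14 were called lower and 0 higher (13 and 0 after rescaling, 11 under all 3 scalings). The summed level of the list was 217 to 257 RPKM in R26 WT and 97.1 to 105 RPKM in tet-Myc/YAP. In bulk tissue, fewer cells of a type and less RNA per cell cannot be told apart.

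Plvap and Kdr, genes of endothelial cells, fell from 13.4 to 15.6 RPKM to 6.11 to 7.73 RPKM and from 6.62 to 8.59 RPKM to 3.44 to 4.11 RPKM (−1.02 ± 0.10 and −0.92 ± 0.10, rescaled −0.60 and −0.52). Oit3, of liver sinusoids, fell by 1.20 and Clec4g by 1.0. Of the 23 endothelial markers tested, 20 were called lower and 0 higher (10 and 0 after rescaling), and the list summed to 170 to 196 RPKM in R26 WT and 92.7 to 101 RPKM in tet-Myc/YAP. The median difference was −0.86 for the 22 members at 1 to 80 RPKM, beside −0.40 for all genes of their level bins. For 18 markers of stellate cells and fibroblasts 8 were called lower (4 after rescaling, with Rgs5 and Vim at −0.60 and −0.63 rescaled), and the list summed to 117 to 126 against 62.9 to 72.3 RPKM. Cholangiocyte and progenitor markers were called higher in 1 (Pkhd1) and lower in 2 (Aqp1, Spp1) of 9 tested (1 and 0 after rescaling). As deposited, 37.6% of all genes tested were called lower. The list summed to 59.8 to 72.2 against 44.3 to 47.9 RPKM as deposited. Its 6 members at 1 to 80 RPKM had a median difference of −0.25, beside −0.41 for all genes of their level bins. Of 13 neutrophil, 20 lymphocyte and 8 erythroid markers found, 6, 3 and 5 were tested, and 2, 0 and 4 were called lower (1, 0 and 1 after rescaling). No gene of these 7 marker lists was at 0 in all 7 libraries.

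**Figure D5:**
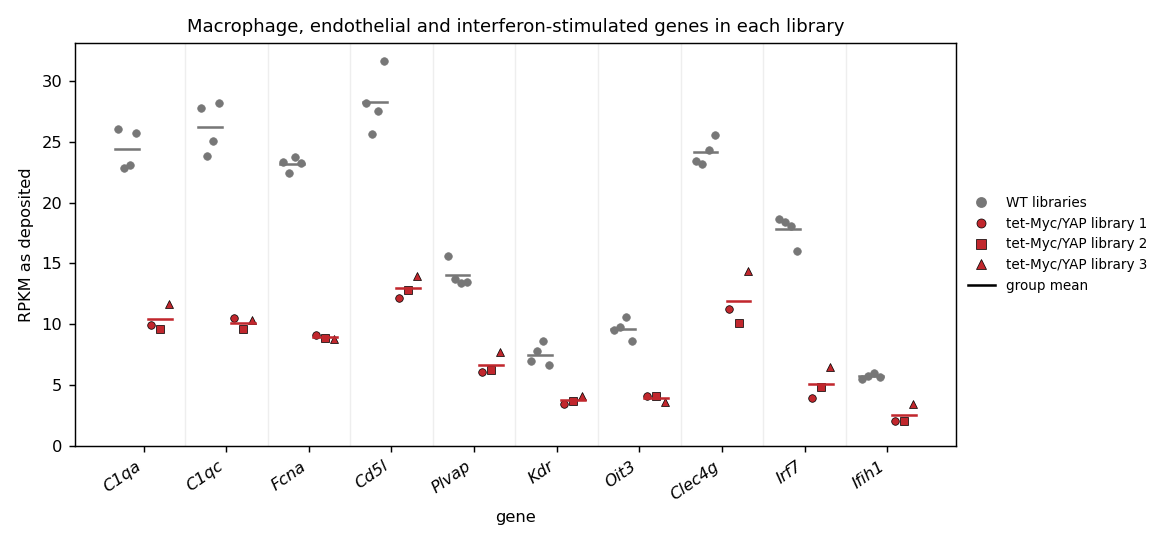
RPKM as deposited (linear axis from 0) of macrophage (C1qa, C1qc, Fcna, Cd5l), endothelial (Plvap, Kdr, Oit3, Clec4g) and interferon-stimulated genes (Irf7, Ifih1) in each library of R26 WT (grey) and tet-Myc/YAP (red, shape gives the library), with bars at group means. No tet-Myc/YAP library reaches the lowest R26 WT library for any of the 10 genes, for example 9.63 to 11.7 against 22.9 to 26 RPKM for C1qa.

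Interferon-stimulated genes, which cells switch on against viruses, were lower too. Irf7, a transcription factor that amplifies the response, stood at 16 to 18.7 RPKM in R26 WT and at 3.92, 4.88 and 6.50 RPKM in tet-Myc/YAP (−1.73 ± 0.16, adjusted p = 6.09e-07, rescaled −1.32). Ifih1 (Mda5), a sensor of viral RNA, fell by 1.06. Of the 22 tested, 20 were called lower and 0 higher (10 and 1 after rescaling). Rescaled, Irf7 differed from tet-Myc by −0.25 (adjusted p = 0.243, mean 8.26 RPKM in tet-Myc) and Ifih1 by −0.26 (adjusted p = 0.0747, mean 4.10 RPKM), while as deposited both were called lower. Of the list, 5 were called lower than tet-Myc and 1 higher as deposited, but 0 and 5 after rescaling, and 0 and 3 without the library labelled tet-Myc 4.

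Genes of sterol synthesis stood furthest below R26 WT in tet-Myc/YAP libraries 1 and 2. Mvk, mevalonate kinase, stood at 7.93 to 9.57 RPKM in R26 WT and at 1.71, 1.51 and 5.63 RPKM in tet-Myc/YAP (−1.65 ± 0.26, adjusted p = 6.49e-05, rescaled −1.27). Pmvk and Tm7sf2, which act later in the pathway, were lower by −1.24 and −1.21. Of 24 genes tested, 20 were called lower and 0 higher (12 and 0 after rescaling, 10 and 0 with close pairs averaged). The rescaled median of the list was −1.02 and −1.03 in libraries 1 and 2 but 0.17 in library 3. Fatty acid synthesis genes had the same order, with medians of −0.37, −0.29 and 0.41, and Mid1ip1, an activator of acetyl-CoA carboxylase, stood at 3.07, 2.78 and 14.5 RPKM, against 18.2 to 21.4 RPKM. Genes of pericentral hepatocytes, the cells around the central vein that respond to Wnt, were lower by a median of −1.10 (−0.56 for all genes of their level bins). Axin2, a Wnt target, fell from 1.48 to 3.01 RPKM to 0.724 to 0.888 RPKM (−1.11 ± 0.18, adjusted p = 7.68e-05), and Cyp1a2 and Gulo were lower by −1.11 and −1.08. Of the 14 tested, 12 were called lower (8 after rescaling), with rescaled medians of −0.92, −0.74 and −0.09 by library. Of 12 periportal genes 9 were called lower and 2 after rescaling, with a median of −0.66 beside −0.63.

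Genes that differ between male and female liver were also called, some of them without the female-pattern library. Cyp2b9, a female-biased P450, stood at 0 to 0.0356 RPKM in R26 WT and at 12.1, 10.8 and 36.2 RPKM in tet-Myc/YAP (5.07 ± 1.07, adjusted p = 0.000654), a difference whose size depends on the 0.5 added to each value and whose call was lost with limma voom on recovered reads. Cyp2c39 stood at 0.261 to 0.540 RPKM and at 10.8, 11.8 and 28.9 RPKM (4.16 ± 0.40, adjusted p = 6.83e-07), and Cyp2a22 at 1.07 to 1.56 RPKM and 4.69, 4.77 and 17.0 RPKM (2.11 ± 0.53). All 3 were called also without library 3. Members of these P450 families share sequence, so reads may have been split between them. Hao2, a peroxisomal oxidase, stood at 2.10, 1.92 and 9.95 RPKM, against at most 0.0328 RPKM in R26 WT, and was called neither without library 3 nor with limma voom. None of these 4 genes was called against tet-Myc (adjusted p = 0.115 to 0.59 rescaled, 0.331 to 0.947 without the library labelled tet-Myc 4), a group in which 2 of 4 libraries had the female pattern. In its male-pattern libraries Cyp2c39 stood at 7.27 and 11.7 RPKM and Cyp2b9 at 0.182 and 0.285 RPKM. In its female-pattern libraries they stood at 25.5 and 29.3 RPKM and at 31.9 and 34.7 RPKM. Of the 13 female-biased genes tested, 9 passed the filter only with the tet-Myc/YAP libraries counted, 3 were called higher, and their rescaled median was 0.33, 0.24 and 5.45 in libraries 1, 2 and 3. Male-biased genes were lower. Elovl3, a fatty acid elongase, fell from 38.8 to 45.3 RPKM to 6.59, 8.24 and 1.39 RPKM (−3.14 ± 0.57, adjusted p = 0.000183), Cyp7b1, an oxysterol hydroxylase, from 33.3 to 43.5 RPKM to 9.84, 9.24 and 8.51 RPKM, and Hsd3b5, a male-specific steroid dehydrogenase, from 39.5 to 47.5 RPKM to 8.05, 7.13 and 0.0239 RPKM. Of 13 male-biased genes tested, 12 were called lower and 0 higher (6 and 0 after rescaling), and 12 of the 13 did not overlap after rescaling.

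Other genes of the differentiated hepatocyte fell as well, several of them genes whose level followed the sex pattern in tet-Myc. Nat8, an acetyltransferase gene, stood at 13.6 to 17.3 RPKM in R26 WT and at 1.04, 0.709 and 0.454 RPKM in tet-Myc/YAP (−3.72 ± 0.75, adjusted p = 0.000474). Susd4, a complement regulator, stood at 7.94 to 9.76 RPKM and at 0.227, 0.271 and 0.189 RPKM (−3.61 ± 0.66, adjusted p = 0.00019). Ces2c, a carboxylesterase, stood at 6.01 to 6.46 RPKM and at 0.134, 0.201 and 0.664 RPKM (−3.05 ± 0.25, adjusted p = 2.27e-07). In all 3 genes the groups were far apart. In tet-Myc, Nat8 stood at 0.335 and 0.796 RPKM in the female-pattern libraries and 11.3 and 19.9 RPKM in the male-pattern ones, and Susd4 at 0.0279 and 0.304 against 4.77 and 6.83 RPKM. The male-pattern tet-Myc/YAP libraries 1 and 2 were low in both genes, and the part of the sex pattern in these results was not tested. Ces2c was also lower than in tet-Myc and tet-YAP, by −2.12 and −1.61 rescaled (adjusted p = 6.34e-06 and 4.48e-05, and by −1.97 without the library labelled tet-Myc 4). Nnmt, which methylates nicotinamide, fell to 2.78, 1.34 and 17.3 RPKM from 30.1 to 35.3 RPKM. Cyp2d40 fell by 2.19 ± 0.16 (adjusted p = 1.34e-07), Gstm6, a glutathione transferase, by 1.84, F11, coagulation factor XI, by 1.54 and Foxa3, a hepatocyte transcription factor, by 1.73, while Foxa1 rose by 0.99 (2.39 to 2.81 RPKM in R26 WT, 7.07, 6.71 and 3.76 RPKM in tet-Myc/YAP). Saa1, Saa2 and Saa3, serum amyloid genes of the acute phase response, fell by 2.38, 3.08 and 2.87. Of the 19 acute phase genes tested 10 were called lower (6 after rescaling), with a median of −0.67 beside −0.63 for all genes of their level bins, and rescaled medians of −0.61, −0.80 and 0.17 in libraries 1, 2 and 3. Saa3 was split along the close pairs of R26 WT (33.5, 8.30, 9.99 and 40.6 RPKM) and stood at 1.65 to 2.88 RPKM in tet-Myc/YAP, and Moxd1, an oxygenase-like gene, had the same split (23.4, 4.34, 4.59 and 27.4 RPKM) and stood at 0.0143, 0 and 0 RPKM. In tet-Myc, Moxd1 stood at 0.0184 and 0 RPKM in the female-pattern libraries and at 12.3 and 5.85 RPKM in the others. The Saa2 call was lost with close pairs averaged and the Moxd1 call with limma voom.

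Further genes belonged to the 15 largest steps in each direction. Neurl1b, a ubiquitin ligase gene, stood at 0.239 to 0.351 RPKM in R26 WT and at 6.26, 5.06 and 1.83 RPKM in tet-Myc/YAP (2.47 ± 0.25, adjusted p = 1.04e-06). Slc22a27, an organic anion transporter, stood at 0.0967 to 0.202 RPKM and at 2.47, 2.57 and 10.3 RPKM, and H2-Q1, a class I histocompatibility gene with near-identical neighbours, at 0.803 to 1.11 RPKM and 5.76, 5.78 and 9.44 RPKM. In none of the 3 did the groups overlap, but the Slc22a27 call was lost with close pairs averaged. Neurl1b and Slc22a27 passed the filter only with the tet-Myc/YAP libraries counted. Among the lowest, Pitx3, a homeobox gene, stood at 4.6 to 7.80 RPKM in R26 WT and at 0.592, 0.752 and 0.0559 RPKM (−2.86 ± 0.25, adjusted p = 3.93e-07), Col5a3, a collagen chain, at 4.54 to 5.22 RPKM and 0.420, 0.367 and 0.0852 RPKM (−2.77 ± 0.31), and Gpr110, an adhesion receptor, at 4.16 to 5.17 RPKM and 0.132 to 0.226 RPKM. Cml5, a relative of Nat8, and Cyp4a12b stood at 0.782, 0.916 and 0 RPKM and at 1.29, 1.61 and 0 RPKM in tet-Myc/YAP, from 9.59 to 13.9 and 9.22 to 9.44 RPKM in R26 WT, and both calls were lost with close pairs averaged. Both split by sex pattern in tet-Myc, with Cml5 at 0 and 0.157 against 10.5 and 13.6 RPKM and Cyp4a12b at 0.0118 and 0 against 6.22 and 5.55 RPKM, as did Slc22a27, at 12.2 and 9.87 against 0.0868 and 0.176 RPKM. H2-Q1 and Gpr110 were split there too, at 9.52 and 8.45 against 0.850 and 1.25 RPKM and at 0.599 and 0.150 against 1.95 and 5.27 RPKM. Tff3, a trefoil peptide, stood at 6.28, 2.87, 3.15 and 6.41 RPKM, along the close pairs, and at 0 to 0.433 RPKM in tet-Myc/YAP.

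As groups, the functions of the hepatocyte had medians close to those of genes of like level. The level bins, here and for the lists above, include the list members themselves and hold 315 genes at 32 to 80 RPKM. Closeness to a bin median is thus partly built in. Secreted hepatocyte proteins were called lower in 37 of 59 as deposited and 8 after rescaling, urea cycle and amino acid catabolism genes in 23 and 6 of 31, P450 genes of families 1 to 3 in 20 and 5 of 42 (with 4 higher under both), conjugating enzymes in 22 and 4 of 48, bile acid genes in 13 and 4 of 22 and hepatocyte transcription factors in 13 and 1 of 24. The median differences of their members at 1 to 80 RPKM, −0.54, −0.70, −0.69, −0.55, −0.56 and −0.52, stood beside −0.63, −0.64, −0.63, −0.56, −0.63 and −0.56 for all genes of the same level bins. The libraries differed. Rescaled medians in tet-Myc/YAP libraries 1, 2 and 3 were −0.34, −0.27 and 0.24 for secreted proteins and −0.46, −0.36 and 0.08 for urea cycle genes. They were −0.30, −0.32 and 0.26 for P450 genes and −0.17, −0.11 and 0.18 for conjugating enzymes. For bile acid genes they were −0.20, −0.15 and −0.04, and for transcription factors −0.13, −0.10 and −0.06. In R26 WT libraries 1 to 4 the medians for secreted proteins were −0.18, −0.13, 0.05 and 0.27. The sixth-highest gene stood at 52.9, 54.4, 59.2 and 62.3 RPKM in these libraries. In tet-Myc/YAP libraries 1, 2 and 3 it stood at 34.3, 33.8 and 55.7 RPKM. The part of this upper limit in the list medians by library, here and above, was not tested. Of the 4 oncofetal genes tested of 15 found, 0 were called as deposited (Hmga1 0.23, adjusted p = 0.359, and Cd24a −0.20, adjusted p = 0.641).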

How the data were processed

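Total RNA of liver was sequenced, and the library preparation skipped bead selection with poly-T. The authors deposited RPKM values for the R26 mice; per the labels, the processing used TopHat2 2.0.8, featureCounts 1.4.5-p1, SAMtools, DESeq2 and mm9. What made the common upper limit of the values is not given in the sources used here. A deposited table of the authors' own fold changes was not used. Of 21671 symbols, 27 that had turned into dates were left out. For the other 21644 genes, 100.0% of them, a gene length could be found at which the values were whole reads within 0.05 read. Genes at 0 in every library were counted among them.

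Genes that reached 1 RPKM in 3 or more of the 17 R26 libraries were tested on log2(RPKM + 0.5) with limma 3.58.1 in R 4.3.3 (moderated test with a trend, 4 groups in one fit, Benjamini-Hochberg adjusted p), and called at an adjusted p under 0.05 and a log2 difference of at least 0.5. Libraries were rescaled by median ratios or quantile normalized as alternatives. Others changed the pseudocount, the filter, the samples, the variance model or a sex covariate, averaged pairs of libraries whose variance was under 2 times that of counting, or left out libraries. The fit was tested on simulated data. Limma voom on the recovered reads, and rescaling without library 3 or without the library labelled tet-Myc 4, were chosen after seeing the data.

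Named genes were Myc, Yap1, the 15 highest and 15 lowest called genes that did not overlap, reached 1 RPKM in the higher group and were called also without library 3, and up to 4 called members per list and direction with the smallest adjusted p (if none, the 2 with the highest mean in R26 WT). An item that this rule names is not reported here. The members and lists were chosen with earlier results of these data known. The label columns name groups only, so libraries are numbered by column.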

Additional observations from a re-analysis of the deposited data

Results flagged for a closer look

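Dixon's test was applied to the 4 R26 WT libraries of each gene named; chance alone marks about 1 in 20 groups. Of the 147 genes tested it marked 9 with 1 library apart from the other 3, a share close to that of chance alone. The highest library stood apart for Mcm5 (1.56 RPKM), Ccnb2 (0.781 RPKM), Hao2 (0.0328 RPKM), Nop10 (22.1 RPKM), Plvap (15.6 RPKM), Saa2 (53.2 RPKM), Susd4 (9.76 RPKM) and Vim (11.7 RPKM), and the lowest for Imp3 (17.2 RPKM).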

How the results depend on the processing

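No paired analysis was possible because the columns carry no replicate number. The counts of calls against R26 WT (519 higher, 4232 lower, 4751 in all) became 1363, 967 and 2330 after median-ratio scaling, 1104, 1140 and 2244 after quantile normalization, 1679, 1167 and 2846 with limma voom on recovered reads and 1712, 1185 and 2897 after median-ratio scaling without tet-Myc/YAP library 3, the last pair chosen after seeing the data. Genes called higher numbered 310 with a filter of 2 RPKM and 326 with close pairs averaged. Leaving out 1 library gave 410 to 642 higher, 3709 to 4574 lower and 4172 to 5216 in all.

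Against tet-Myc the higher, lower and total calls (536, 4094 and 4630) were 1399, 750 and 2149 after median-ratio scaling, 1192, 1005 and 2197 after quantile normalization, 1732, 987 and 2719 with voom and 1760, 1076 and 2836 without library 3 after scaling, 1293, 704 and 1997 after scaling without the library labelled tet-Myc 4, chosen after seeing the data, and 333 were higher with the filter of 2 RPKM. Against tet-YAP they (475, 2610 and 3085) were 1029, 761 and 1790 after median-ratio scaling and 946, 990 and 1936 after quantile normalization; with voom 1310 were higher and 981 lower, without library 3 after scaling 1340 and 922, and 280 were higher with the filter. The cause of these shifts was not tested. Of the named genes, Paics (0.039) and Perp (0.084) changed sign under quantile normalization. Genes near the upper limit of a library cannot show their true difference. The sixth-highest gene stood at 34.3 and 33.8 RPKM in tet-Myc/YAP libraries 1 and 2, and at 52.9 to 62.3 RPKM in R26 WT. A gene near the limit can therefore appear lower as deposited without a change, or show a muted difference. With 3 tet-Myc/YAP libraries the precision is limited.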
